A study of Mus musculus with 4 samples.

Results

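Respiratory complex I, NADH:ubiquinone oxidoreductase, was followed through the genes whose array name has the form Ndufa, Ndufab, Ndufb, Ndufc, Ndufs, Ndufv or Ndufaf and a number. The results cover 51 probes with such a name, for 36 genes, of the 41174 non-control probes on the array. The rule uses names alone, but the gene family was taken up with earlier results of these data known. Background was clearly exceeded by 48 of the 51, in each channel of each of the 4 arrays, and these 48 probes were tested. Saturation was seen on 0 of the 51. The remaining 3 probes, 1 each for Ndufab1, Ndufs1 and Ndufs4, were above background on 0 arrays, and each of these genes had at least 1 other probe that was tested.

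The samples were cultures of B16-F10, a mouse melanoma line grown in medium with serum. Each of the 4 arrays read 2 dyes. Cy5 marked RNA of cells given a goat polyclonal antibody against TIM-3, and Cy3 marked RNA of cells given unspecific goat IgG. The source label of replicate 1 calls the antibody an agonist, and those of the other replicates do not use the word. Exposure lasted 2 h, at 15 µg/ml where the labels state the dose, which they do not repeat for the anti-TIM3 sample of replicate 3. TIM-3 is a surface receptor best known from T cells and other immune cells. The 4 arrays are called biological replicates and come from passages 14, 16, 18 and 19 of the same line, so p-values measure the spread between passages. Cy5 always carried the anti-TIM3 sample. In every result below, what the dye did to a probe and what the antibody did cannot be told apart. All 4 arrays lay on 1 slide and were scanned in 1 session. All 6 melanocyte lineage markers looked up (Mitf, Tyr, Tyrp1, Dct, Pmel and Mlana) were above background, and 4 of these 6 rose. Those 4 lay over 16 in brightness (mean log2 intensity of the 2 channels), where 89.6% of all tested probes rose, and with the deposited log ratios Mlana alone was called. Of 7 markers of lymphocytes, macrophages, fibroblasts and endothelium, 4 were above background, of which Lyz2 and Col1a1 rose by 0.13 each on the log2 scale (neither called with the deposited log ratios), while Ptprc, Pecam1 and Adgre1 were above background on 0 arrays. The part of those markers in the results below was not tested.

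Complex I is the entry point of the mitochondrial respiratory chain. It takes electrons from NADH, passes them along flavin and iron-sulfur centres to ubiquinone, and pumps protons across the inner membrane. Its L shape has a peripheral arm in the matrix, made of an NADH-oxidising N module and a quinone-reducing Q module, and a membrane arm that holds the proton-pumping subunits. The pumping subunits are encoded by mitochondrial DNA, and the remaining subunits, the NDUF genes among them, by nuclear DNA. Core subunits carry the catalytic centres and have bacterial counterparts, and accessory subunits surround them and are needed for assembly and stability. B16-F10 cells, like most cultured tumour lines, have working mitochondria alongside strong glycolysis.

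The probes are 60-base oligonucleotides. Shown here are the probes of the 2 genes that fell and of 2 genes that rose, all of which hold at least 1 reading frame with no stop codon, and a pair of Ndufa12 probes whose shared 40 bases are in capitals. Ndufs8 holds iron-sulfur centres of the Q module, and Ndufv1 binds the NADH and the flavin. Ndufa1 and Ndufb8 are accessory subunits of the membrane arm. In the mm7 coordinates of the files, the Ndufs8 probe is at chr19:3806006-3806374 and the Ndufv1 probe at chr19:3902422-3902585, both on the minus strand. Each of these spans more genome than its 60 bases (369 and 164 bases), so it crosses a gap such as an intron. The Ndufb8 probe at chr19:44444238-44446582 also crosses a gap, on the minus strand. The Ndufa1 probe at chrX:31949641-31949700, on the minus strand, and the Ndufa12 pair at chr10:93758922-93758981 and chr10:93758942-93759001, on the plus strand, do not. The exon or untranslated region of a probe is not annotated in the sources used here.
Ndufs8: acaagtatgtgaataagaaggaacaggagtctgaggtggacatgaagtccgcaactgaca
Ndufv1: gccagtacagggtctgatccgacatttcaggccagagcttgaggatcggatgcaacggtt
Ndufa1: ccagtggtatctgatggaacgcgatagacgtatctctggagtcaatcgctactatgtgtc
Ndufb8: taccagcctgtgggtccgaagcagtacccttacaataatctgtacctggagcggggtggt
Ndufa12, first probe: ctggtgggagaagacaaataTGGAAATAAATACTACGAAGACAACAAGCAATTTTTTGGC
Ndufa12, second probe: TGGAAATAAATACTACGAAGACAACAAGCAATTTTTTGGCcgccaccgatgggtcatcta

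NDUF transcripts shifted by small amounts after anti-TIM3, mostly upwards and mostly in the membrane arm. Of 48 tested probes, 17 rose and 2 fell (limma, Benjamini-Hochberg adjusted p under 0.05 over all 26545 tested probes). Across all tested probes 14.2% rose and 13.6% fell, so the NDUF share that rose (35.4%) stood above the background share and the share that fell (4.17%) below it. With the deposited log ratios of the scanner software in place of loess the order of the first turned round, with 4 NDUF probes (8.33%) that rose against 10.8% of all tested probes, and 3 of the 17 calls were kept (limma). In that setting 0 NDUF probes fell, against 8.97%. At an unadjusted p under 0.05, 12 of the 48 were higher and 3 lower there, against 5675 and 4891 of all 26545 tested probes. The 17 probes belonged to 16 genes, the 2 probes to 2 genes, and 18 genes had no called probe. No gene (0 of 36) was called in both directions. The median log2 ratio of anti-TIM3 over IgG was 0.09 over the 48 probes and 0.01 over all tested probes. The called changes were small, between 0.12 and 0.31 on the log2 scale upwards and at -0.13 and -0.12 downwards, and none of the 19 passed a test against a minimum change of 1.2-fold (0 probes, limma treat), which 0.162% of all tested probes passed upwards and 0.049% downwards. At an unadjusted p under 0.05 that test took 0 NDUF probes above and 0 below, against 246 and 163 of all tested probes. In the plot of tested NDUF probes by array, 25 of the 48 were above 0 on all 4 arrays and 4 were below 0. Over all 26545 tested probes those counts were 6569 (24.7%) and 6090 (22.9%). Probes with 1 sign on all 4 arrays made up 60.4% of the NDUF probes and 47.7% of all tested probes.

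**Figure D1:**
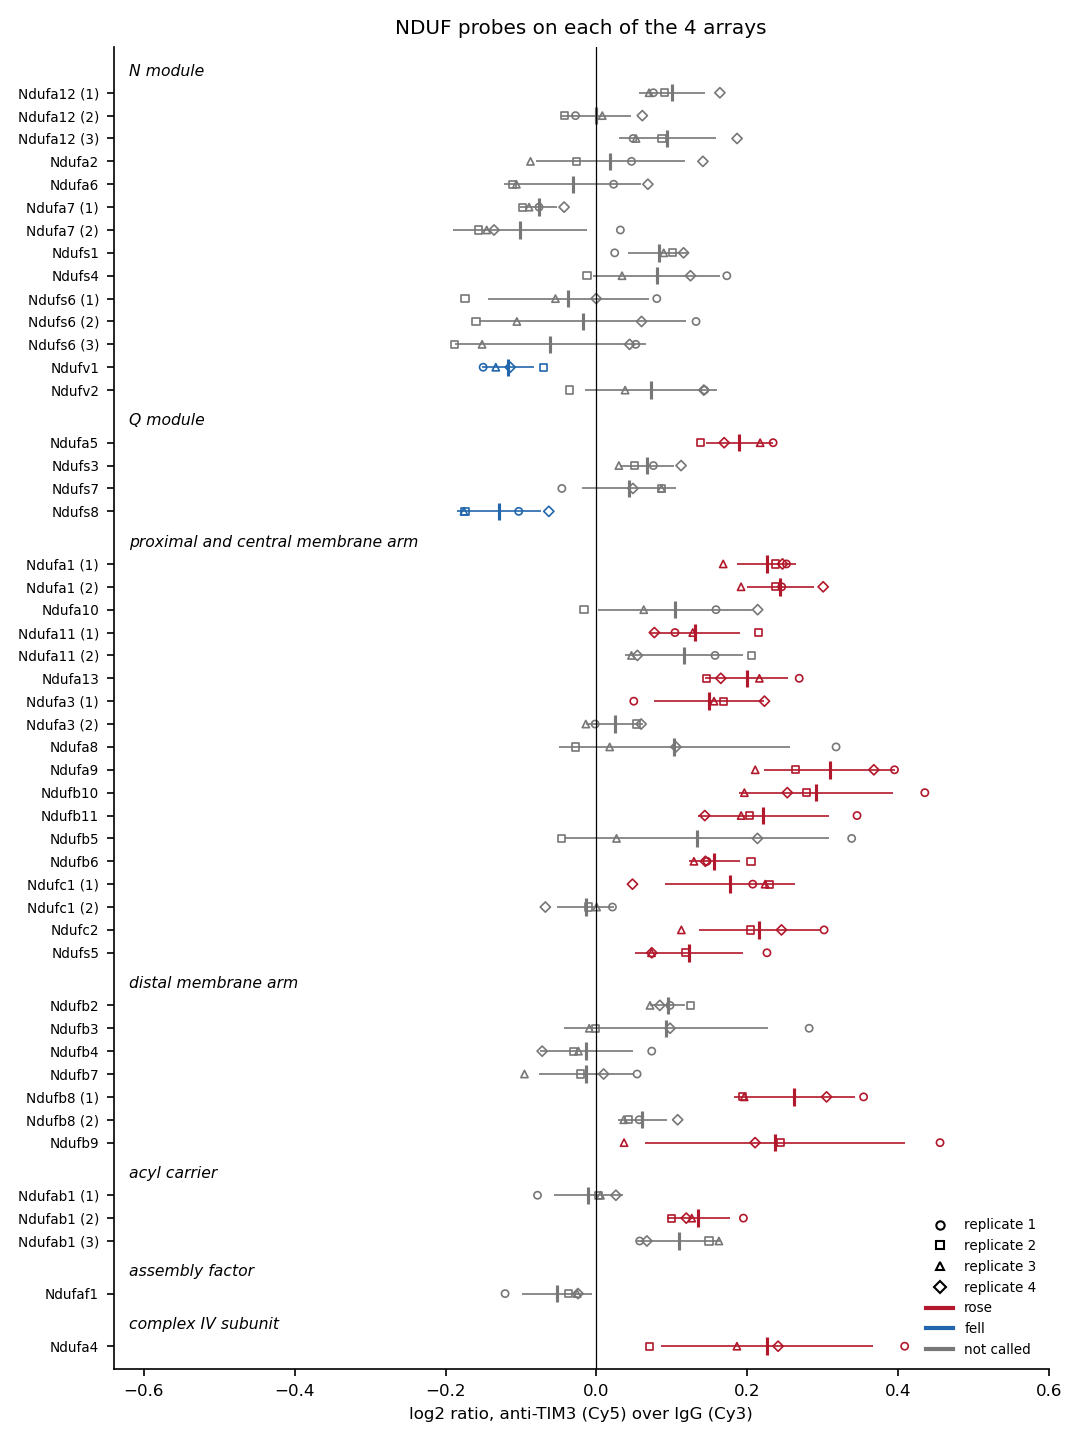
Log2 ratio of anti-TIM3 over IgG (horizontal axis, no unit) for each of the 48 tested NDUF probes, grouped by place in complex I. Open symbols are the 4 arrays, the vertical tick is their mean and the line is 1 SD on each side. Probes of the same gene are numbered from the brightest. Red probes (17) rose and blue probes (2) fell, and most red ones lie in the membrane arm.

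The membrane arm held most of the genes that rose after loess. Of its 25 tested probes (20 genes), 14 rose and 0 fell, and the log2 ratios had a median of 0.13. At an unadjusted p under 0.05, 17 of the 25 were higher and 0 lower in anti-TIM3 cells (limma). Of all 26545 tested probes, 5825 were higher and 5303 lower by that measure. Of the 14 that rose, 3 kept the call with the deposited log ratios. In that setting 3 of the 25 rose and 0 fell, against 10.8% and 8.97% of all tested probes. Over 15 in brightness lay 8 of the 14, and 1 of the peripheral arm probes. Of all tested probes between 15 and 16, 41.9% rose. The peripheral arm had 18 tested probes (13 genes), of which 1 rose and 2 fell, with a median of 0.01. Over all tested probes 14.2% rose and 13.6% fell. This division into arms was drawn after the values were seen, and no test was made of it. Within the membrane arm, the genes of its proximal and central parts made up 18 probes of 14 genes, and 12 of these probes, from 11 genes, rose (median 0.15). The distal part had 7 probes, of which 2 rose (median 0.09). Some schemes place Ndufb4 with the central rather than the distal part, which makes the first count 12 of 19. Ndufa9 sits where the arms meet, and without it 13 of 24 membrane arm probes rose. Of those 13, 2 kept the call with the deposited log ratios, both probes of Ndufa1. Counted with Ndufa9, the peripheral arm had 2 probes that rose and 2 that fell of 19.

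Ndufa9, an accessory subunit at the junction of the arms that binds a nicotinamide nucleotide, had the largest rise among the NDUF probes. Its processed signal, the background-subtracted and dye-normalised intensity in the deposited files, was 30066, 23015, 23204 and 25621 in anti-TIM3 cells, against 25163, 20357, 21421 and 20834 in IgG cells (replicates 1 to 4). The anti-TIM3 signal was the higher of the pair on all 4 arrays, although replicate 1 was brighter than the rest in both channels and the groups overlapped across arrays, as they did for each gene given in full below. After loess normalisation the log2 ratios were 0.40, 0.26, 0.21 and 0.37, a mean of 0.31 ± 0.09 (SD, n = 4 arrays; limma adjusted p = 0.00161), or 1.24-fold with a 95% interval of 1.16 to 1.32. Ndufb10, a membrane arm accessory subunit with conserved cysteines, had a processed signal of 45242, 36027, 39608 and 39949.8 in anti-TIM3 cells, against 39679, 33236, 39141 and 37784 in IgG cells. Replicate 3 had nearly equal signals in the 2 channels, and the anti-TIM3 channel was again higher on all 4 arrays. The log2 ratios were 0.44, 0.28, 0.20 and 0.25, a mean of 0.29 ± 0.10 (SD, n = 4 arrays; limma adjusted p = 0.00256). With the deposited log ratios in place of loess its mean was 0.10 and the call was lost (limma adjusted p = 0.140).

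Ndufa1, a small single-pass subunit of the proximal membrane arm encoded on the X chromosome, rose on both of its probes, which share no sequence. The probe printed above had processed signals of 25192, 20088, 18765 and 20248 in anti-TIM3 cells, against 22792, 17584, 16860.0 and 16824 in IgG cells. Anti-TIM3 was higher on all 4 arrays, and the log2 ratios of 0.25, 0.24, 0.19 and 0.30 averaged 0.24 ± 0.04 (SD, n = 4 arrays; limma adjusted p = 0.00213). The other Ndufa1 probe, at chrX:31947395-31947454 on the minus strand, averaged 0.23 ± 0.04 (SD, n = 4 arrays; limma adjusted p = 0.00265). Ndufa1 was the only gene of the 9 with several tested probes on which every tested probe was called. Its probes and the Ndufa9 probe were the 3 of the 17 that also rose with the deposited log ratios, where they averaged 0.19, 0.15 and 0.21. Those 3 also kept their calls when each array was left out in turn and when trends on brightness and base composition were removed.

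Ndufb8, a distal membrane arm subunit whose protein level is often used as a marker of assembled complex I, had processed signals of 48553, 37677, 38810.2 and 41776 in anti-TIM3 cells, against 45837, 37424, 38568 and 38219.6 in IgG cells. Replicates 2 and 3 had nearly equal signals in the 2 channels. The log2 ratios after loess were 0.35, 0.19, 0.20 and 0.31, a mean of 0.26 ± 0.08 (SD, n = 4 arrays; limma adjusted p = 0.00266), and the mean of the deposited log ratios was 0.06 (limma adjusted p = 0.313). Ndufb9, an LYR-motif subunit of the distal arm, had log2 ratios of 0.46, 0.24, 0.04 and 0.21, with replicate 1 far above replicate 3. Its mean was 0.24 ± 0.17 (SD, n = 4 arrays; limma adjusted p = 0.0188), and the call was lost without replicate 1 (adjusted p = 0.0577) or without replicate 4 (adjusted p = 0.0505). Its processed signals were 58012, 41300.1, 45342 and 44571 in anti-TIM3 cells, against 54293, 39289, 49397 and 43583 in IgG cells, and in replicate 3 anti-TIM3 was the lower. The mean of the deposited log ratios was 0.02 (limma adjusted p = 0.798).

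**Figure D2:**
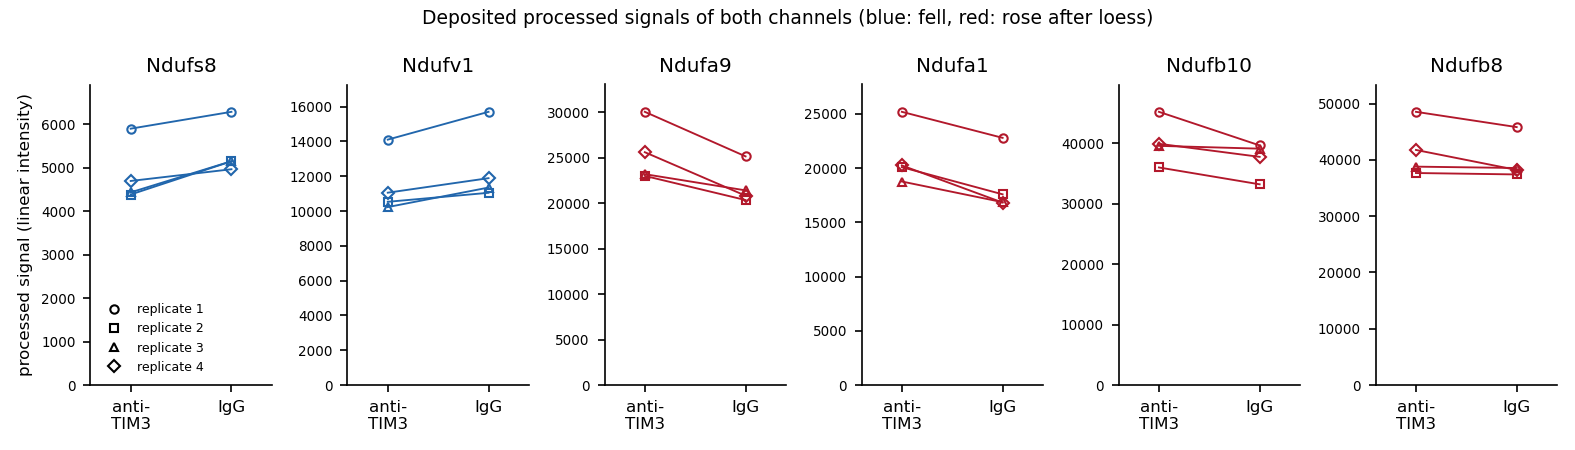
Deposited processed signal (vertical axis, linear intensity from 0, on a scale of its own for each probe) of 6 NDUF probes in anti-TIM3 and IgG cells, with a line for each of the 4 arrays. Ndufs8 and Ndufv1 (blue) are lower in anti-TIM3 cells on every array, while Ndufa9, Ndufa1, Ndufb10 and Ndufb8 (red) are higher, Ndufb8 by little in replicates 2 and 3.

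The other membrane arm genes that rose did so by 0.12 to 0.22 on the log2 scale. They were Ndufb11 at 0.22, Ndufc2 at 0.22, Ndufa13 at 0.20, Ndufc1 at 0.18, Ndufb6 at 0.16, Ndufa3 at 0.15, Ndufa11 at 0.13 and Ndufs5 at 0.12. Ndufa13, also known as GRIM-19, is an accessory subunit first described in interferon- and retinoid-induced cell death. Of these, Ndufa11 and Ndufs5 lost the call whichever array was left out, Ndufa3 without replicate 2, 3 or 4, and Ndufb6 and Ndufc1 without replicate 2. All 8 lost the call with the deposited log ratios (limma adjusted p from 0.0503 for Ndufc1 to 0.811 for Ndufs5), and Ndufa13 and Ndufs5 averaged -0.03 and -0.01. With trends on brightness and base composition removed, Ndufb6, Ndufb11, Ndufc2, Ndufc1 and Ndufs5 lost the call, at means of 0.02, 0.05, 0.06, 0.08 and -0.01. The log2 ratios of Ndufc1 were 0.21, 0.23, 0.22 and 0.05, with replicate 4 apart from the others. Membrane arm probes that were not called had means from -0.01 to 0.13, among them Ndufb5 at 0.13 ± 0.18 and Ndufa8 at 0.10 ± 0.15 (SD, n = 4 arrays each), whose replicate 1 was the highest.

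Ndufs8 and Ndufv1, both core subunits of the peripheral arm, were the genes that fell after loess. Ndufs8, the Q module subunit with iron-sulfur centres, had processed signals of 5897, 4382, 4431 and 4694 in anti-TIM3 cells, against 6284, 5147, 5148 and 4963 in IgG cells. Its log2 ratios of -0.10, -0.17, -0.18 and -0.06 were all below 0 and averaged -0.13 ± 0.06 (SD, n = 4 arrays; limma adjusted p = 0.0287). The call was lost without replicate 1, 2 or 3, with adjusted p of 0.0511, 0.115 and 0.112. Ndufv1, the NADH- and flavin-binding subunit, had 14104.5, 10531, 10228 and 11055 in anti-TIM3 cells, against 15703, 11049, 11349 and 11889 in IgG cells. It was lower after anti-TIM3 on every array, with log2 ratios of -0.15, -0.07, -0.13 and -0.11 and a mean of -0.12 ± 0.03 (SD, n = 4 arrays; limma adjusted p = 0.0322). Leaving out any single array lost the call, with adjusted p between 0.0632 and 0.110. Neither gene was called with the deposited log ratios, where Ndufs8 averaged -0.16 and Ndufv1 -0.12 (limma adjusted p = 0.0649 and 0.0682), nor with the trends removed, where the means were -0.05 and -0.04.

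The core subunits Ndufs1, Ndufv2, Ndufs3 and Ndufs7 were not called. Ndufs1, the N module's iron-sulfur subunit, averaged 0.08, Ndufv2, an iron-sulfur subunit beside the flavin site, 0.07, and Ndufs3 and Ndufs7 of the Q module 0.07 and 0.04. Their 95% intervals ran from -0.04 at the lowest (Ndufs7) to 0.16 at the highest (Ndufv2), and none of them reached the mean of Ndufs8 or Ndufv1. Of the 6 core probes tested here, 0 rose and 2 fell after loess. Of the other 42 NDUF probes, 17 rose and 0 fell. This split was drawn after the values were seen and was not tested. Over all tested probes 14.2% rose and 13.6% fell. At an unadjusted p under 0.05, 1 core probe was higher and 2 lower, against 5825 and 5303 of all 26545 tested probes. With the deposited log ratios 0 core probes were called, and of the other 42 probes 4 rose and 0 fell. With trends on brightness and base composition removed, 0 core probes were called, and of the other 42 probes 14 rose and 2 fell. The 2 probes that fell after loess also shared a property of the probe itself, since each crosses a gap in the genome. Of the 12 tested NDUF probes that cross a gap, 2 rose and 2 fell, and of the 36 on contiguous bases 15 rose and 0 fell. Over the whole array, 9.83% of 3651 gap-crossing probes rose and 19.9% fell. The part of this property in the falls was not tested.

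The accessory subunits of the N module had mean log2 ratios between -0.10 and 0.10, and no probe of theirs was called. Of 14 N module probes, 0 rose and 1 fell (Ndufv1), and at an unadjusted p under 0.05, 3 were higher and 3 lower (limma). Of all 26545 tested probes, 5825 were higher and 5303 lower before adjustment. Ndufa7 was below 0 on its 2 probes, at -0.08 and -0.10, with adjusted p of 0.113 and 0.0955. Ndufs6, a zinc-binding subunit, was read by 3 overlapping probes at -0.04, -0.02 and -0.06. Ndufs4, whose loss causes a Leigh-like disease in mice, averaged 0.08 (adjusted p = 0.165), and Ndufa6 and Ndufa2 averaged -0.03 and 0.02. In the Q module, the accessory subunit Ndufa5 rose with log2 ratios of 0.23, 0.14, 0.22 and 0.17, a mean of 0.19 ± 0.04 (SD, n = 4 arrays; limma adjusted p = 0.00561). With the deposited log ratios Ndufa5 averaged -0.01 (adjusted p = 0.879).

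A further 3 genes were counted in neither arm. Ndufa4, first named as a complex I subunit and now assigned to cytochrome c oxidase, was the brightest NDUF probe. Its log2 ratios were 0.41, 0.07, 0.19 and 0.24, with replicate 1 the highest, and the mean was 0.23 ± 0.14 (SD, n = 4 arrays; limma adjusted p = 0.0134). Its processed signals were 54775, 43118, 41322 and 44851 in anti-TIM3 cells, against 50447, 47689, 41951 and 43601 in IgG cells, so anti-TIM3 was the higher in replicates 1 and 4 and the lower in replicates 2 and 3. Without Ndufa4, 16 of 47 probes rose. Ndufab1, the mitochondrial acyl carrier protein, had 1 of 3 tested probes that rose (0.14), while the others averaged 0.11 and -0.01. Ndufaf1, an assembly factor of the membrane arm, averaged -0.05 (adjusted p = 0.289).

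Probes of the same gene did not always give the same result. Of the 36 genes, 9 had several tested probes, and in 5 of them some but not all were called. For Ndufb8 the probe printed above averaged 0.26, and a dimmer probe at chr19:44442601-44442660 averaged 0.06 (adjusted p = 0.199). Ndufc1 averaged 0.18 on the probe that rose and -0.01 on the other, and Ndufa3 averaged 0.15 and 0.02, the last on the dimmest tested NDUF probe. That dimmest probe had processed signals between 43.2 and 59.9 in anti-TIM3 cells, against 35.2 to 55.9 in IgG cells, and log2 ratios of -0.00, 0.05, -0.01 and 0.06. The means of the Ndufa3 probes with the deposited log ratios were 0.14 and 0.16, and those of the Ndufb8 probes 0.06 and 0.09, so those pairs lay closer together than after loess, while Ndufc1 stood at 0.18 and -0.01. The Ndufa12 pair printed above, which shares 40 of 60 bases, averaged 0.09 and -0.00. Across the 10 pairs of tested probes without shared bases, the absolute difference of the mean log2 ratios ran from 0.01 to 0.20. RefSeq (GRCm38.p6) lists 7 similarly named copies or pseudogenes of 6 of the genes (Ndufa11, Ndufa12, Ndufab1, Ndufb4, Ndufs5 and Ndufs6), so signals of those probes may include other transcripts and are uncertain.

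Brightness moved with the result. The median brightness, the mean log2 intensity of the 2 channels, was 15.4 for the probes that rose and 13.9 for those not called. The 2 that fell were at 12.4 and 13.7. Of all tested probes, 21.2% fell in the range from 12 to 13 and 25.1% in that from 13 to 14. All 10 NDUF probes between 15 and 16 rose, and so did 41.9% of the 406 tested probes in that range. In the range from 14 to 15, 4 of 18 NDUF probes rose, against 15.2% of 797 tested probes. Among the 48 probes, brightness and log2 ratio had a Spearman correlation of 0.46 after loess and -0.14 with the deposited log ratios, given as a description over probes that share the same 4 arrays. The 4 NDUF probes that rose with the deposited log ratios were both Ndufa1 probes, Ndufa9 and a dim Ndufab1 probe, and the NDUF median was then 0.05. Of the 17 that rose after loess, 13 were above 0 with the deposited values and 4 were not (Ndufa4, Ndufa5, Ndufa13 and Ndufs5). The part of brightness in the result was not tested.

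**Figure D3:**
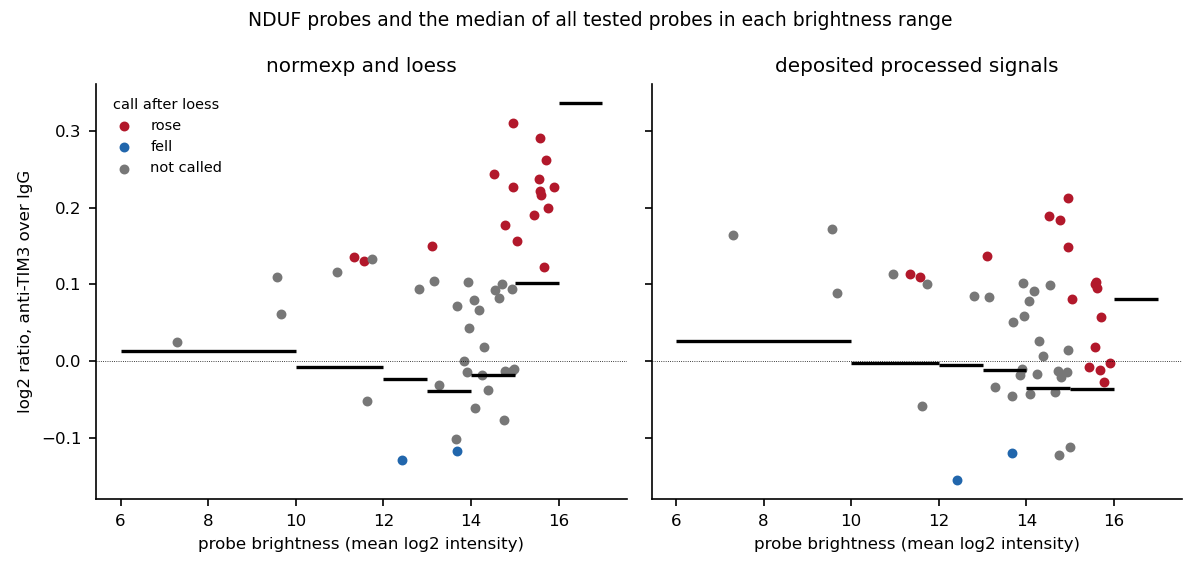
Log2 ratio of anti-TIM3 over IgG against probe brightness (mean log2 intensity) for the 48 tested NDUF probes, after normexp and loess on the left and with the deposited processed signals on the right. Black bars are the median of all tested probes in each brightness range, and colours give the call after loess in both panels. The 10 NDUF probes between 15 and 16 all rose on the left, and on the right they lie close to the other members.

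The NDUF probes were also set against all tested probes of like brightness, as a description of arms that were split after the values were seen. All 25 membrane arm probes lay above the median of all tested probes in their own brightness range after loess, and likewise all 25 with the deposited log ratios and all 25 with plain median centring. Of the 18 peripheral arm probes, 12, 10 and 10 did so under the same settings. With trends on brightness and base composition removed, 21 of the 25 and 10 of the 18 were above 0. By definition the median of a brightness range has as many tested probes above it as below it. That even split is no test of the counts in the arms. Every setting used the same arrays, and some genes had several probes, so the counts are not independent of each other. The part of brightness or of chance in these counts was not tested. Among probes between 13 and 15 in brightness, 5 of 12 membrane arm probes rose and 0 fell (median 0.10), and of 15 peripheral arm probes 0 rose and 1 fell (median -0.00). With the deposited log ratios those medians were 0.10 and -0.02. Of all tested probes after loess, 11.6% rose and 25.1% fell between 13 and 14, and 15.2% and 19.2% between 14 and 15. The arms differed in brightness within that range too, with medians of 14.7 and 14.1. Over all 48 NDUF probes, 41 lay above the median of their brightness range after loess, 38 with the deposited log ratios and 39 with median centring, and 34 were above 0 with the trends removed.

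**Figure D4:**
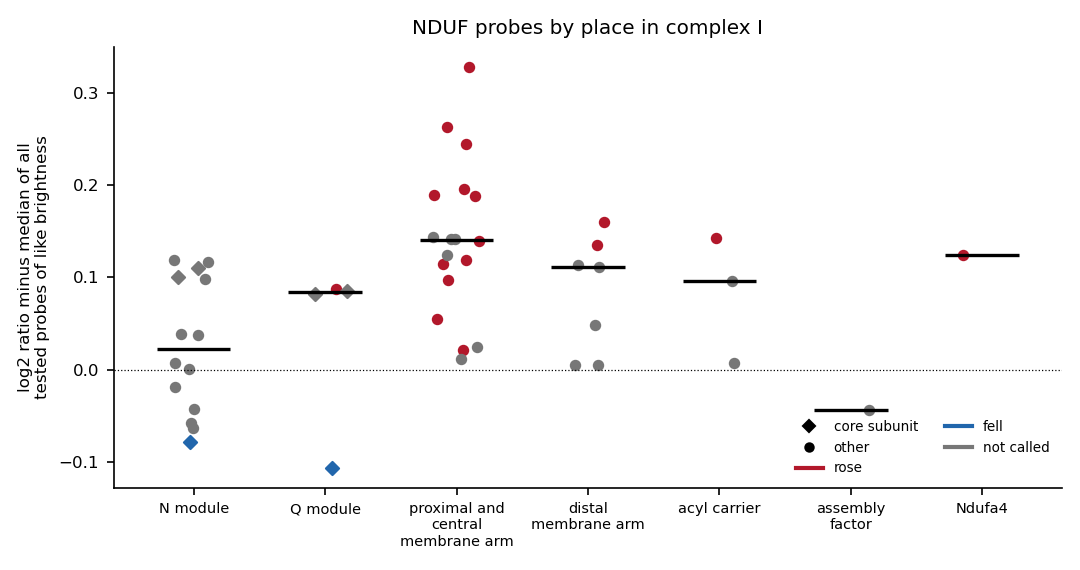
Mean log2 ratio of each tested NDUF probe minus the median of all tested probes in the same brightness range (vertical axis), by place in complex I. Diamonds are core subunits, circles other members, colours give the call and the black bar is the median of each group. All 25 probes of the proximal, central and distal membrane arm are above 0, and the blue diamonds are Ndufs8 and Ndufv1.

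The arrays differed in how strongly the NDUF probes moved. The NDUF medians were 0.10, 0.06, 0.04 and 0.11 in replicates 1 to 4, and 40, 28, 34 and 40 of the 48 probes were above 0. Replicate 1 had the highest ratio of the 4 for 24 of the 48 probes and for 12 of the 17 that rose. Pearson correlations of the 48 log2 ratios between arrays were 0.573 to 0.872, a description across probes. Of the 17 probes that rose, 10 kept the call whichever array was left out, and of the 2 that fell 0 did. With trends on brightness and base composition removed, 14 of the 48 NDUF probes rose (29.2%) and 2 fell (4.17%, an Ndufab1 and an Ndufa7 probe). Over all tested probes the shares were 13% and 13.1%. With the 2 channels of an array fitted as unpaired samples, 3 of the 48 rose and 0 fell by limma (15 up and 1 down before adjustment, p under 0.05). Over all 26545 tested probes 330 (1.24%) rose and 252 (0.949%) fell in that fit. Before adjustment the counts over all tested probes were 2438 up and 2408 down. With median centring alone 0 NDUF probes were called by limma, as were 0% of all tested probes. At an unadjusted p under 0.05, 17 NDUF probes were higher and 0 lower, against 968 and 38 of all tested probes.

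Some complex I genes have older or other names in the files and fell outside the name rule. Through RefSeq symbols or the files' descriptions, 15 more probes were found and tested, among them the mt-Nd4 probe given below. Of these 15 probes, 3 rose and 2 fell. These shares, 20% and 13.3%, are near those of all tested probes (14.2% and 13.6%). Ndufaf7, an assembly factor with a methyltransferase fold, fell on both of its probes. Its log2 ratios were -0.16, -0.21, -0.24 and -0.13 on the first, a mean of -0.18 (limma adjusted p = 0.00704), and -0.11, -0.31, -0.37 and -0.23 on the other, a mean of -0.26 (limma adjusted p = 0.00498). Both kept their calls with the deposited log ratios, at adjusted p of 0.0349 and 0.0421. Ndufv3, an accessory subunit of the N module, rose on 1 of 3 probes, with log2 ratios of 0.40, 0.27, 0.18 and 0.33 and a mean of 0.30 (limma adjusted p = 0.00209), while its other probes averaged 0.01 and -0.03. Another Ndufa8 probe, named by a transcript in the files, rose by 0.22 (limma adjusted p = 0.0148), where the member probe was not called at 0.10. A further probe named by a transcript, at chr3:51529426-51529485 near the Ndufc1 probes, averaged -0.03 and was not called (limma adjusted p = 0.593). The third rise was on 1 of 3 probes of the assembly factor Ndufaf4, at 0.11. Ndufv3 kept its call with the deposited log ratios, and Ndufa8 and Ndufaf4 did not (adjusted p = 0.0620 and 0.116). These genes were picked out after their values were seen.

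Genes that work with the NDUF products moved in both directions. Of the 7 mitochondrially encoded complex I subunits, 1 was found on the array by name or description, mt-Nd4, a proton-pumping subunit, and its log2 ratios of 0.25, -0.04, 0.33 and -0.23 had no common direction (mean 0.08 ± 0.26, SD, n = 4 arrays; limma adjusted p = 0.494). Of 13 assembly and associated genes with other names, 12 were tested, 1 rose and 3 fell, with a median of -0.04. The assembly factor Foxred1 fell with log2 ratios of -0.29, -0.23, -0.24 and -0.22 (limma adjusted p = 0.00182) and Tmem126a with a mean of -0.29 (limma adjusted p = 0.00191). Nubpl, which delivers iron-sulfur clusters to complex I, rose by 0.14 (limma adjusted p = 0.0290). Foxred1 and Tmem126a kept their calls with the deposited log ratios, and Nubpl did not (adjusted p = 0.186). The list's shares were 8.33% and 25%, against 14.2% and 13.6% of all tested probes.

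Complex II, the other entry point to the chain, had 1 gene that rose and 4 that fell of 8, with a median of -0.09. These shares were 12.5% and 50%, against 14.2% and 13.6% of all tested probes. Sdha, its flavin-carrying subunit, and Sdhc, a membrane anchor, fell by 0.27 and 0.21 on the log2 scale, while its assembly factor Sdhaf4 rose by 0.23. In the fit of the deposited log ratios 1 rose and 2 fell (12.5% and 25%, against 10.8% and 8.97% of all tested probes). Sdha was not called there (limma adjusted p = 0.0583). Among 11 regulators of mitochondrial biogenesis, 2 rose and 2 fell, with a median of 0.01, and 18.2% in each direction is near the share of all tested probes. Ppargc1a, the PGC-1 alpha coactivator that drives respiratory genes in a subset of melanomas, rose with log2 ratios of 0.57, 0.34, 0.34 and 0.71, a mean of 0.49 ± 0.18 (SD, n = 4 arrays; limma adjusted p = 0.00136). Tfb1m rose by 0.20, and Pprc1, a coactivator related to Ppargc1a, fell by 0.19 on the log2 scale. Esrra, the nuclear receptor ERR alpha, which the rule for named genes does not reach, fell by 0.17 (limma adjusted p = 0.00687). Ppargc1a, Tfb1m and Esrra kept their calls with the deposited log ratios, and Pprc1 did not (adjusted p = 0.107).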

How the data were processed

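RNA of anti-TIM3 and IgG cells was compared on 4 Agilent 2-colour arrays. Each deposited scanner file gives the intensity of every spot and channel on a linear scale. The scanner software was Agilent Feature Extraction, release 9.5.1.1 per the file headers and 9 per the submitters' processing notes. A value table deposited beside them gives log10 ratios (Cy5 over Cy3), equal to the ratio column of the scanner files in all 45018 spots (largest difference 0), and each column's median over non-control spots was 0. Per the file headers, that software made the processed signals by subtracting background, detrending over the slide and normalising the dyes. Flags of background, saturation and outliers were used as deposited. Annotation is mm7 per the file headers, and all 51 probes matched a RefSeq symbol of GRCm38.p6.

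Mean signals were corrected by normexp (offset 50), normalised within arrays by loess with control spots at weight 0, and averaged per probe without outlier spots. Of 41174 probes, 26545 were tested, those marked clearly above background by Cy5 or Cy3 on 3 or 4 arrays. Log2 ratios were tested against 0 with limma 3.58.1 (R 4.3.3, two-sided, Benjamini-Hochberg over all tested probes, threshold 0.05). The array pairs the 2 samples of a passage, per the labels. The number of arrays limits the precision. The script was tested on simulated data. Described in full are the 6 highest and 6 lowest called probes of 1 sign on all arrays (only 2 fell), genes called both ways, and the brightest and dimmest probe. From the other lists, up to 3 called genes each were named, each gene by its brightest tested probe. Members and lists were chosen with earlier results of these data known, so no list was tested as a set. Alternatives covered background correction, normalisation, filters, variance prior, array weights, pairing, minimum change, trends, bright probes, members and each replicate. A gene that the name rule takes is not reported here and is left out of every count of NDUF probes and of the figures. Copies of the genes were not separated.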

Additional observations from a re-analysis of the deposited data

Results flagged for a closer look

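Of the 48 tested NDUF probes, 3 had a single array whose log2 ratio lay far from the other 3, by the gap to the nearest value over the range of the 4 (Dixon's ratio, critical value 0.829). Chance gives such a gap in about 1 of 20 groups. The dimmer of the Ndufa7 probes had a ratio of 0.891, with 0.03 in replicate 1 against -0.16, -0.15 and -0.14 in the others. Ndufc1, on the probe that rose, had a ratio of 0.88, with 0.05 in replicate 4 against 0.21, 0.23 and 0.22. Ndufaf1 had a ratio of 0.873, with -0.12 in replicate 1 against -0.04, -0.03 and -0.02.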

How the results depend on the processing

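The count of NDUF probes that rose was 17 and of those that fell 2, with a median log2 ratio of 0.09. With the deposited log ratios 4 rose and 0 fell by limma (12 and 3 at an unadjusted p under 0.05; median 0.054), and the mean turned below 0 for Ndufa13 (-0.027), Ndufs5 (-0.012), Ndufa5 (-0.0078) and Ndufa4 (-0.0019). With median centring and no loess 0 rose and 0 fell by limma (17 and 0 at an unadjusted p under 0.05), where 0 probes of the whole array were called. The NDUF median was then 0.55 and that of all tested probes 0.15, and Ndufs8 and Ndufv1 stood at 0.23 and 0.34. Fitting the 2 channels separately, with no replicate block for the pairing of the samples by array, left 3 that rose and 0 that fell by limma (15 and 1 at an unadjusted p under 0.05). Against a minimum change of 1.2-fold the counts were 0 and 0 (0 and 0 at an unadjusted p under 0.05, limma treat). Leaving out probes over 15 in brightness left 7 that rose of 38 tested. With a normexp offset of 10, 0 fell by limma (3 at an unadjusted p under 0.05). Removing trends on brightness and base composition gave 14 that rose, 10 of them among the 17, and 2 that fell, neither of them Ndufs8 or Ndufv1, with a median of 0.052 and with Ndufs5 at -0.012. Adding probes by current symbol, an alternative chosen after seeing the data, gave 19 that rose and 4 that fell of 60. Leaving out each array in turn, 12 to 13 rose and 0 to 1 fell by limma (2 to 3 lower at an unadjusted p under 0.05), with medians of 0.075 to 0.10. The cause of these changes was not tested. Some of the settings also had fewer probes or samples in the fit. Under the other settings run, the 2 counts stayed within 1.5 times. Low signal leaves 3 probes untested and also limits the dimmest tested ones. The dim Ndufa3 probe averaged 0.02 after loess and 0.16 with the deposited log ratios, and the dimmest tested Ndufab1 probe 0.11 (not called) and 0.17 (called).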
